A study of Mus musculus with 13 samples.

Results

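The 9 genes described here encode secreted growth factors of blood and lymphatic vessels and some of the surface receptors that read vessel guidance cues. They are the vascular endothelial growth factors Vegfa, Vegfb and Vegfc, the related placental growth factor Pgf, the platelet-derived growth factor chains Pdgfa and Pdgfb, the neuropilins Nrp1 and Nrp2, and plexin D1 (Plxnd1). They were chosen by name, with earlier results of these data known. All 9 were found among the 21950 genes of the bulk table and among the 28693 genes of the single-cell matrices. VEGF family ligands act on tyrosine kinase receptors of endothelial cells, and neuropilins bind VEGF forms and class 3 semaphorins next to those kinases or next to plexins. Plexin D1 is the receptor through which semaphorin 3E and, with neuropilins, other class 3 semaphorins steer endothelial sprouts. Epidermis holds no blood vessels of its own, and keratinocytes are a known source of VEGF-A for the dermis, while PDGF-A from keratinocytes is known to act on fibroblasts that carry its receptor.

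Bulk RNA came from C57BL/6 mice, as 3 groups of 3 libraries of interfollicular basal cells, the layer of epidermis between hair follicles that rests on the basement membrane. The cells were sorted from abdominal skin as CD49f+ CD34-, where CD49f is integrin alpha 6 and CD34 marks follicle bulge cells. The groups were pregnant wild type (WT) mice, taken 16 days post coitum (dpc16), WT mice that were not pregnant (NP), and K14creERT2;Tbx3flox/flox mice at dpc16 (cKO), in which a keratin 14 promoter drives an inducible Cre that recombines the gene of the T-box repressor Tbx3. Whether the bulk WT mice were given tamoxifen, when the cKO mice were, and which stretch of Tbx3 is removed is not given in the sources used here. The single-cell data hold 1 library of epidermis for each of 4 states, NP, dpc16, dpp6 (6 days post partum) and dpp40 (40 days), all from tamoxifen-treated Tbx3creERT2; R26H2B EGFP mice. No single-cell library of cKO skin was analysed here.

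In bulk cells Tbx3 was at 16.96, 15.29 and 22.98 FPKM (fragments per kilobase of transcript, scaled to the size of the library) in WT dpc16, at 8.96, 6.38 and 8.12 in NP and at 4.81, 1.65 and 4.89 in cKO, so the cKO libraries were the lowest. The basal keratins were abundant in every library, with Krt14 from 4260 to 11688 FPKM and Krt5 from 5822 to 14070. The sum of 9 interfollicular basal markers was 32366 to 35904 FPKM in WT dpc16, 30210 to 39678 in NP and 21697 to 29462 in cKO, so every cKO library was below every WT library. The sum of 8 infundibulum and upper follicle markers was 597 to 1151 FPKM in WT dpc16, 990 to 3861 in NP and 1188 to 2072 in cKO, so every cKO library was above every WT dpc16 library. Of 10 endothelial markers Cdh5, Cldn5 and Tie1 were listed at 0 in all 9 libraries, and the summed level of the list ranged from 4.0 to 6.2 FPKM in WT dpc16, from 0.9 to 16.8 in NP and from 2.5 to 8.2 in cKO. Differentiated (spinous) marker RNA was present in all libraries and uneven, with 7 markers summing to 5952, 6742 and 15355 FPKM in WT dpc16, 8941 to 10892 in NP and 3553 to 5355 in cKO. In bulk data fewer cells of a type and less RNA per cell cannot be told apart. The 4 single-cell libraries kept 6491, 12853, 9031 and 8552 cells at NP, dpc16, dpp6 and dpp40, with medians of 4709, 4448, 5014 and 5638 UMIs (unique molecular identifiers, one per captured RNA molecule) per cell. Pairs of libraries shared between 75 and 154 cell barcodes, at most 1.77% of a library.

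The promoter of Plxnd1 is shown because this gene had the largest difference among the 9, and that of Vegfa because it is the main vascular ligand measured. Each run is the 250 bases before the gene's start in RefSeq (build GRCm38.p6), written 5′ to 3′ on the gene's strand, which is the minus strand for both. Plxnd1 lies at chr6:115954811-115995005 and its run at chr6:115995006-115995255. Vegfa lies at chr17:46016993-46032369 and its run at chr17:46032378-46032627. Capitals mark GCGTG, one of the 2 forms of the core of the hypoxia response element:
Plxnd1: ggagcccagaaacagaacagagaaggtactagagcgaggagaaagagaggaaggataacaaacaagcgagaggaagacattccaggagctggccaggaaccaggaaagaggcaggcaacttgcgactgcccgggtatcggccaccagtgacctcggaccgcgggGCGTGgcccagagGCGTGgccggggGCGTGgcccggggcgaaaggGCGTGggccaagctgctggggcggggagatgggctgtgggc
Vegfa: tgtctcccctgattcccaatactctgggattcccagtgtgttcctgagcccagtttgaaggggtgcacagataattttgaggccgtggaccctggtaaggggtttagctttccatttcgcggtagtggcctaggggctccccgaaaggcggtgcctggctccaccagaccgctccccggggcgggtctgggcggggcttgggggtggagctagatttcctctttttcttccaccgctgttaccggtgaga
The Plxnd1 run held GCGTG 4 times, counted on both strands, against at least 4 times in 0.846% and at least once in 28.2% of the 32851 mouse promoters of the same length. Each of these 4 also lies inside GGCGTGG, the letters of a box bound by Krüppel-like factors, which occurred 4 or more times in 0.0426% of promoters and at least once in 7.54%. GGCGTGG was added to the search after the Plxnd1 letters were seen. The other hypoxia core, ACGTG (16.6% of promoters), and the T-box core GGTGTGA (3.33% of promoters) were found neither in the Plxnd1 run nor in the Vegfa run, and the Vegfa run held no GCGTG. A second Vegfa promoter in the RefSeq table, at another start site and not shown here, held ACGTG once and GCGTG once. Among the members, GGTGTGA was found once in the Nrp2 promoter and in no other of the 8 members that the table covers. A match is only a stretch of letters, and its absence says nothing beyond this window.

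Plxnd1 was the member that differed most between the groups. It was at 44.2, 35.3 and 47.4 FPKM in WT dpc16, at 9.95, 14.98 and 9.64 in NP and at 3.83, 2.10 and 7.11 in cKO. The order was WT dpc16, then NP, then cKO, and no library of one group reached the range of the next. Means were 42.3 ± 6.28, 11.5 ± 3.00 and 4.35 ± 2.55 FPKM (SD, n = 3 each). Changes are given as differences of log2(FPKM + 1) from limma, with Benjamini-Hochberg adjustment over 11497 genes and a threshold of 0.05. Plxnd1 was lower in cKO than in WT dpc16 by a change of -3.12 (SE 0.32, adjusted p = 0.00328), the fourth largest change of all genes tested in that comparison, and it stayed past the threshold in each of 16 other settings, with adjusted p from 0.0016 to 0.0256.

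The higher Plxnd1 level of pregnant against non-pregnant WT mice was not past the threshold. WT dpc16 minus NP was 1.81 (SE 0.32, limma adjusted p = 0.0904), rank 28 of 11497 by p, in a comparison where 0.130% of all genes were called. It passed in 4 of the 16 other settings, with adjusted p = 0.0316 with a pseudocount of 5, 0.0297 in a fit of the 2 groups alone, 0.0426 without cKO library 2 and 0.0395 without cKO library 3. Plxnd1 was also lower in cKO than in NP, by -1.31 (SE 0.32, limma adjusted p = 0.0453), and this call was lost in 13 of the 16 settings, among them 8 of the 9 that leave out 1 library; the adjusted p ranged from 0.0141 to 0.133. Both comparisons with WT dpc16 share its libraries, and both with cKO share those of cKO, so they are not independent of each other. Summed spinous and basal marker levels were lower in cKO, and infundibulum sums higher in cKO than in WT dpc16, as given above. The basal markers went both ways gene by gene. Against WT dpc16, 4 of the 9 were above 0, the median change was -0.06, 1 was called higher and 0 lower. The part of the mix of cells in these values, and in the other cKO differences given here, was not tested.

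**Figure D1:**
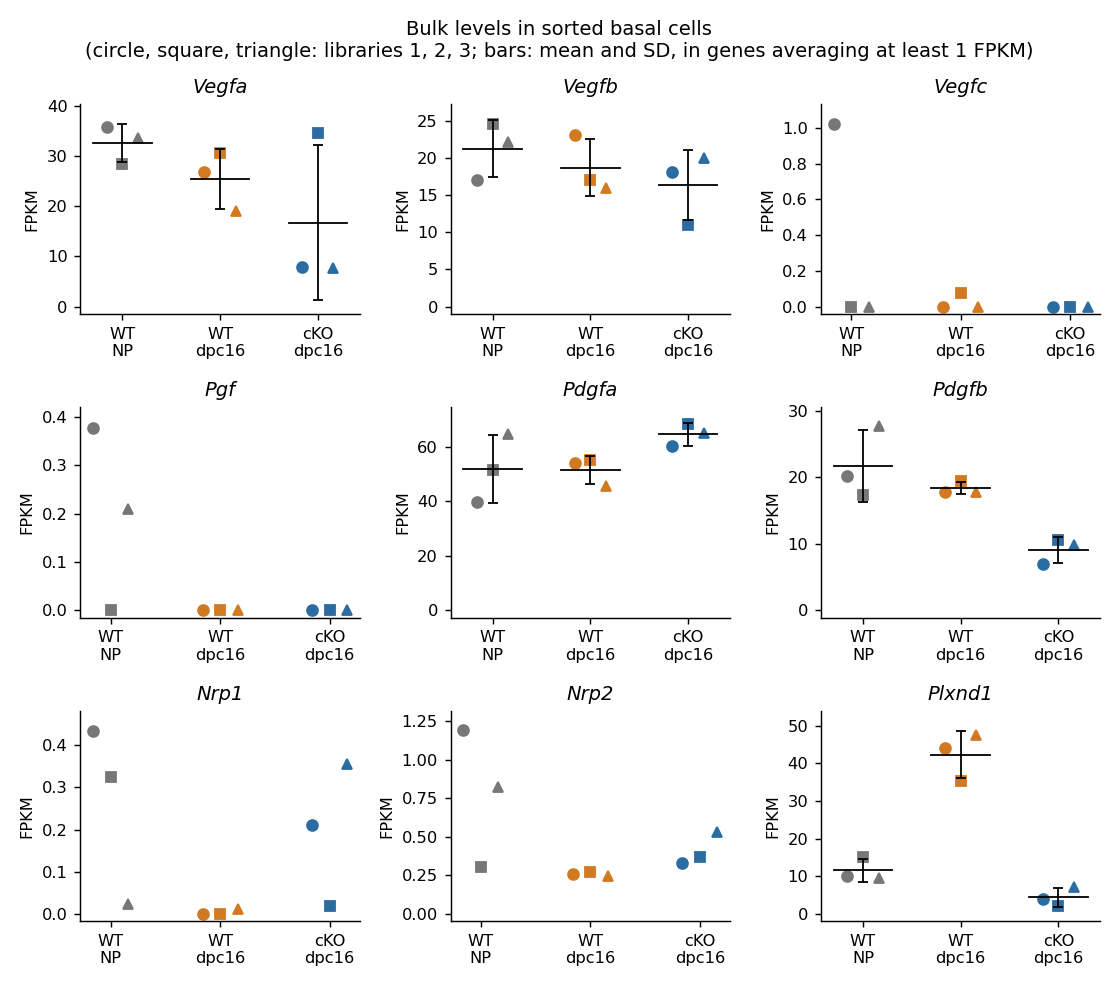
Bulk level (FPKM, linear axes) of the 9 genes in each of the 9 libraries, with the mean and SD of each group of 3 for the 5 genes that average at least 1 FPKM. Plxnd1 separates the groups, with WT dpc16 at 35.3 to 47.4 FPKM and cKO at 2.10 to 7.11, and in the Vegfa panel cKO library 2 stands at 34.6 FPKM above its group.

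Genes whose profile over the 9 bulk libraries was among the 5 most like that of Plxnd1, by Pearson correlation of log2(FPKM + 1), were Il34 (r = 0.990), Ust (0.979), Tbx3 itself (0.952) and Rerg (0.944). These are descriptions over 9 libraries in 3 groups, and any gene with the same order of group means scores high. Il34, a cytokine that maintains Langerhans cells, was at 380, 309 and 327 FPKM in WT dpc16, 188, 205 and 186 in NP and 137, 99.3 and 157 in cKO. As with Plxnd1, its 3 groups did not overlap. Ust, a sulfotransferase that modifies chondroitin and dermatan sulfate, was at 29.6, 24.6 and 28.4 FPKM in WT dpc16, 17.7, 22.4 and 19.2 in NP and 15.03, 11.7 and 18.3 in cKO, where NP and cKO overlapped.

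**Figure D2:**
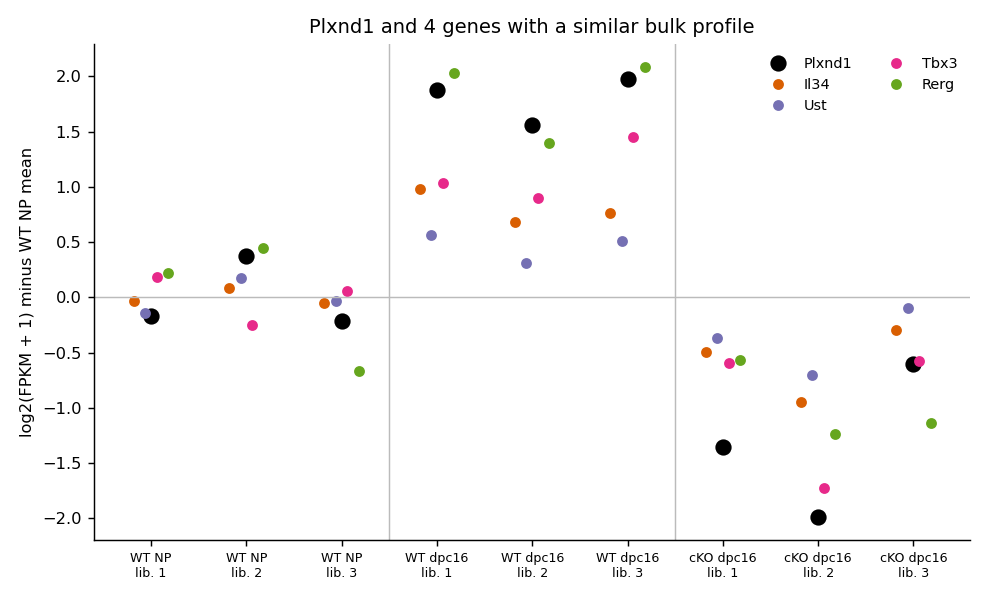
Each library's log2(FPKM + 1) minus the NP mean, for Plxnd1 (large black points) and 4 of the genes of highest correlation with it; points are shifted sideways for sight. All 5 genes are above 0 in the 3 WT dpc16 libraries and below 0 in the 3 cKO libraries.

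Plxnd1 was sparse in single cells, with 30, 113, 25 and 28 UMIs at NP, dpc16, dpp6 and dpp40. Scaled to counts per 1000000 UMIs of the cells counted (CPM), this is 0.754 (exact 95% Poisson interval 0.509 to 1.08), 1.52 (1.25 to 1.83), 0.451 (0.292 to 0.666) and 0.447 (0.297 to 0.647), so the dpc16 library was the highest and its interval met none of the others. With 1 library per state there is no replicate, these intervals cover counting error only, and no test was made. Cells were grouped by clusters built without the 9 genes and named from markers. In the basal-like class, Plxnd1 was at 1.72 (0.742 to 3.38) CPM at NP, 2.10 (1.497 to 2.85) at dpc16, 0.698 (0.190 to 1.79) at dpp6 and 0.666 (0.216 to 1.55) at dpp40, where the NP and dpc16 intervals overlap. In the spinous-like class it was at 0.911 (0.455 to 1.63), 1.67 (1.19 to 2.27), 0.341 (0.0929 to 0.873) and 0.348 (0.128 to 0.758), with dpc16 again highest. Basal-like cells made up 16.0% of cells at NP and 35.0% at dpc16, and at dpc16 most of them were in cluster 0 (2935 cells) while the other libraries had more in cluster 1. Within cluster 0 Plxnd1 was at 1.24 CPM at NP and 1.99 at dpc16, and within cluster 1 at 1.98 and 2.32, from 2 to 26 UMIs each.

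Langerhans-like cells held 0 to 2 Plxnd1 UMIs per library, or 0 to 3.78 CPM. This range takes in the basal-like and spinous-like levels, so free RNA was not separated from expression of Plxnd1 in those classes. Outside the keratinocyte classes the highest Plxnd1 level was in T cell-like cells, with 7 UMIs in 76 cells at dpp6, or 17.7 (7.13 to 36.5) CPM, and 0 to 2 UMIs in each of the other libraries. In bulk, 8 T cell markers summed to 682 to 861 FPKM in WT dpc16, 310 to 609 in NP and 128 to 652 in cKO, so WT dpc16 was highest, as for Plxnd1, and NP and cKO overlapped. Nearly all of this sum was Thy1, at 119 to 853 FPKM, which is also among the leading genes of basal-like cluster 0, while the defining markers Cd3d, Cd3e and Cd3g reached at most 3.86 FPKM in any library.

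Vegfa, the ligand that drives sprouting through its receptor Kdr, was at 26.9, 30.5 and 18.97 FPKM in WT dpc16 and at 35.8, 28.4 and 33.7 in NP. In cKO it was at 7.92, 34.6 and 7.68 FPKM, so libraries 1 and 3 were below every WT library and library 2 was within the NP range. Means were 25.5 ± 5.92, 32.6 ± 3.80 and 16.7 ± 15.4 FPKM in WT dpc16, NP and cKO (SD, n = 3 each). No comparison passed: limma gave -0.36 (SE 0.46, adjusted p = 0.864) for WT dpc16 minus NP, -0.89 (adjusted p = 0.358) for cKO minus WT dpc16 and -1.26 (adjusted p = 0.137) for cKO minus NP. Library 2 of cKO decided the last 2 results, and without it they were -1.56 (adjusted p = 0.0217) and -1.93 (adjusted p = 0.00703), with 2 cKO libraries left.

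The same library stood out in the hypoxia target list, whose genes, like Vegfa, are activated by hypoxia-inducible factors. Their summed level was 1903, 2873 and 1961 FPKM in cKO libraries 1, 2 and 3, against 2382 to 2513 in WT dpc16 and 3028 to 3661 in NP. The genes nearest to Vegfa over the 9 libraries were Cad (r = 0.947), Ergic1 (0.943), Flrt2 (0.926), Aff3 (0.923) and Rhod (0.917). Cad, the enzyme that starts pyrimidine synthesis, was at 9.55, 37.8 and 7.78 FPKM in cKO and at 18.4 to 27.7 in WT dpc16. Cad was picked for its likeness to Vegfa over these libraries, so its high value in cKO library 2 is no separate evidence. What sets this library apart was not tested.

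In single cells Vegfa gave 103, 435, 240 and 286 UMIs at NP, dpc16, dpp6 and dpp40, or 2.59 (2.11 to 3.14), 5.86 (5.32 to 6.43), 4.33 (3.80 to 4.91) and 4.57 (4.06 to 5.13) CPM. The NP library was the lowest and the dpc16 library the highest, the opposite order to the bulk means of NP and WT dpc16, which did not differ past the threshold. The intervals of NP and dpc16 lay apart in 2 of the 12 classes with at least 20 cells in both libraries, in spinous-like cells at 1.99 (1.27 to 2.96) and 7.21 (6.17 to 8.37) CPM from 24 and 173 UMIs, and in infundibulum-like cells at 1.71 (0.784 to 3.25) and 6.96 (5.22 to 9.11). Basal-like cells had 2.79 (1.49 to 4.77) and 4.30 (3.42 to 5.33), intervals that overlap. The spinous-like class joins 3 clusters in unlike shares: clusters 3, 7 and 8 held 608, 267 and 402 cells at NP, and 1114, 1046 and 393 at dpc16. Within them Vegfa was at 1.63, 1.66 and 2.43 CPM at NP and at 6.82, 7.10 and 7.92 at dpc16, and the 2 intervals lay apart in each cluster. With each cell thinned to 2000 UMIs, 0.392% of spinous-like cells had a Vegfa UMI at NP and 1.37% (0.957 to 1.90) at dpc16 (1.88% and 6.31% unthinned). Langerhans-like cells, which carry keratinocyte RNA such as Krt14 at 2574 CPM, had 2.25% (0.273 to 7.88) and 1.15% (0.140 to 4.09), so free RNA was not separated from expression at this depth.

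Vegfb, a ligand of Flt1 with little sprouting activity of its own, was at 23.1, 17.03 and 15.96 FPKM in WT dpc16, 16.995, 24.5 and 22.1 in NP and 18.1, 10.997 and 20.04 in cKO. The 3 groups overlapped. In limma the changes were -0.18 (SE 0.25, adjusted p = 0.885) for WT dpc16 minus NP, -0.20 (0.731) for cKO minus WT dpc16 and -0.38 (0.390) for cKO minus NP. In single cells it was at 11.3, 11.3, 13.4 and 11.8 CPM at NP, dpc16, dpp6 and dpp40. Within the classes it was lower in spinous-like (6.14 to 7.46 CPM over the 4 libraries) and granular-like cells (2.59 to 4.69) than in basal-like cells (14.8 to 19.2), and these ranges do not overlap. Langerhans-like cells had 1.89 to 16.2 CPM of Vegfb. That range takes in the spinous-like and granular-like ranges and overlaps the basal-like one, so free RNA was not separated from expression.

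Vegfc and Pgf, the lymphatic ligand and the placental ligand, were at or near 0. Vegfc was listed at 0 in 7 bulk libraries, at 1.02 FPKM in NP library 1 and at 0.0749 in WT dpc16 library 2. NP library 1 also had the highest fibroblast marker sum, 11.8 FPKM against 0.2 to 1.4 in the others, and the part of other cells in its Vegfc was not tested. Pgf was listed at 0 except in NP libraries 1 (0.377 FPKM) and 3 (0.210). The single-cell libraries held 1, 1, 0 and 0 Vegfc UMIs, and 6, 6, 30 and 11 Pgf UMIs, at NP, dpc16, dpp6 and dpp40.

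Pdgfa, whose dimer binds the receptor Pdgfra, was the most abundant ligand among the 9 genes in FPKM. It was at 54.2, 55.1 and 45.6 FPKM in WT dpc16, 39.9, 51.4 and 64.7 in NP and 60.3, 68.6 and 65.4 in cKO. All cKO libraries were above all WT dpc16 libraries and overlapped NP. The limma changes were 0.01 (SE 0.18, adjusted p = 0.994) for WT dpc16 minus NP, 0.32 (0.402) for cKO minus WT dpc16 and 0.34 (0.300) for cKO minus NP.

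Pdgfb, the chain that recruits pericytes when it comes from endothelium, was at 17.8, 19.4 and 17.8 FPKM in WT dpc16 and at 20.1, 17.3 and 27.8 in NP. In cKO it was at 6.87, 10.6 and 9.81 FPKM, below every library of both WT groups. The means were 18.3 ± 0.912, 21.7 ± 5.41 and 9.09 ± 1.96 FPKM (SD, n = 3 each). It fell in cKO against NP, with a change of -1.16 on the log2 scale (limma adjusted p = 0.0181), which no longer passed without cKO library 1 (-0.995, adjusted p = 0.067) or in a fit of the 2 groups alone (0.0585). Against WT dpc16 the change was -0.96 (SE 0.21), just outside the threshold (limma adjusted p = 0.0514), and it passed in 3 of 16 other settings, with 0.0389 without NP library 3, 0.0443 with a minimum mean of 5 FPKM and 0.0415 with quantile normalization. WT dpc16 minus NP was -0.21 (adjusted p = 0.830).

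Of the 5 members with a mean of at least 1 FPKM, 0 were called by limma between WT dpc16 and NP, where 0.130% of all genes were (0.104% higher, 0.0261% lower), and 1 (Plxnd1) had an unadjusted p under the threshold, as 9.05% of all genes had. Between cKO and WT dpc16, 1 was called (Plxnd1, lower), against 2.15% of all genes, 0.922% lower and 1.23% higher. The unadjusted p was under the threshold for 2 (Pdgfb and Plxnd1), against 17.4% of all genes. Between cKO and NP, 2 were called (Pdgfb and Plxnd1, both lower), against 5.66% of all genes, 2.91% lower and 2.76% higher. The unadjusted p was under the threshold for 3 (Vegfa, Pdgfb and Plxnd1), against 23.8%. Groups did not overlap for 1 of the 5 (Plxnd1) between WT dpc16 and NP, where 15.6% of all genes had groups that did not overlap. They did not overlap for 3 of the 5 (Pdgfa, Pdgfb and Plxnd1) between cKO and WT dpc16, against 26.2%, and for 2 of the 5 (Pdgfb and Plxnd1) between cKO and NP, against 26.4%. The other 4 members (Vegfc, Pgf, Nrp1 and Nrp2) were below the minimum and were not tested.

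**Figure D3:**
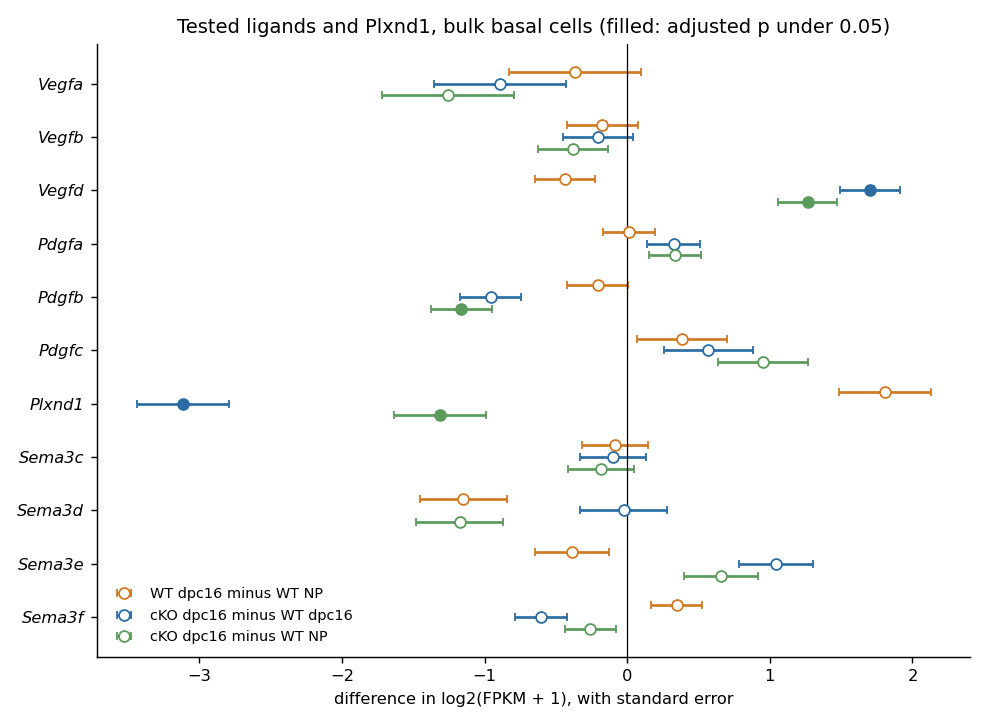
Difference in log2(FPKM + 1) with its standard error from limma, for the 5 members tested and 6 related ligands, in the 3 comparisons; filled points have an adjusted p under 0.05. Plxnd1 (-3.12) and Vegfd (1.70) are the filled points for cKO minus WT dpc16, and no point is filled for WT dpc16 minus NP.

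In single cells Pdgfb was lowest at dpc16, with 10.2 (9.19 to 11.2), 6.76 (6.18 to 7.38), 9.04 (8.26 to 9.87) and 9.57 (8.82 to 10.4) CPM at NP, dpc16, dpp6 and dpp40. In spinous-like cells it was at 16.1 (13.9 to 18.5) at NP, 7.42 (6.37 to 8.59) at dpc16, 12.6 (10.7 to 14.8) at dpp6 and 13.6 (11.96 to 15.5) at dpp40. The dpc16 interval lies below the other 3, in the class that made up 19.7% of NP and 19.9% of dpc16 cells, with the unlike cluster shares given above. Within clusters 3, 7 and 8 Pdgfb was at 13.95, 11.6 and 19.8 CPM at NP and at 7.65, 5.19 and 10.6 at dpc16, with intervals apart in each. The dpc16 interval lay below those of dpp6 and dpp40 in cluster 8, and overlapped both in clusters 3 and 7. Thinned to 2000 UMIs, 3.13% of spinous-like cells had a Pdgfb UMI at NP and 1.33% at dpc16 (13.8% and 6.38% unthinned), and 0 of 89 and 0 of 174 Langerhans-like cells did, with exact 95% upper bounds of 4.06% and 2.10%. Unthinned, Langerhans-like cells held 4 to 10 Pdgfb UMIs per library, or 4.23 to 12.4 CPM. This range takes in the spinous-like level at dpc16, so free RNA was not separated from expression. Basal-like cells had 12.7, 8.75, 15.4 and 10.3 CPM at NP, dpc16, dpp6 and dpp40. Sebaceous-like cells had 0 to 2 Pdgfb UMIs per library. By these values Pdgfb was higher in spinous-like than in basal-like cells at NP and dpp40. At dpc16 and dpp6 it was lower in spinous-like cells, at 7.42 against 8.75 and 12.6 against 15.4 CPM. The basal-like values rest on 59, 167, 88 and 77 UMIs at NP, dpc16, dpp6 and dpp40. The counting intervals of the 2 classes overlap in each library, so no order of the classes is read from them. Spinous marker sums were lower in the cKO bulk libraries, and the part of spinous cells in the bulk difference of Pdgfb was not tested.

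Pdgfa was at 84.5, 84.7, 106.9 and 89.2 CPM at NP, dpc16, dpp6 and dpp40, so dpp6 was the highest and the others were close together. It differed between cell classes. Granular-like cells, the outermost living layer, had 9.38 to 20.3 CPM over the 4 libraries, spinous-like cells 45.2 to 50.2, basal-like cells 110 to 129 and bulge-like cells 178 to 196, and these 4 ranges do not overlap. Langerhans-like cells had 49.2 to 73.1 CPM and T cell-like cells 70.2 to 106, both below the basal-like range. Spinous-like and granular-like ranges did not lie above these, so free RNA was not separated from expression in spinous-like and granular-like cells. The highest level was in a cluster left unnamed and led by Cldn10 and Mfap2, at 303, 375 and 304 CPM at NP, dpp6 and dpp40. A cluster led by Aspn and Pthlh, also unnamed, had 149 to 180.

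Nrp1 and Nrp2 were low in sorted basal cells. Nrp1 was at 0, 0 and 0.0113 FPKM in WT dpc16, 0.433, 0.325 and 0.0225 in NP and 0.210, 0.0182 and 0.355 in cKO. Nrp2 was at 0.257, 0.274 and 0.242 FPKM in WT dpc16, 1.20, 0.303 and 0.823 in NP and 0.330, 0.369 and 0.534 in cKO. For both genes every WT dpc16 library was below every library of the other 2 groups, at levels where a fold is not meaningful. Among the 11497 genes tested, 15.6% had no overlap between WT dpc16 and NP and 26.2% none between cKO and WT dpc16. No such share was taken for genes under 1 FPKM. With no minimum level, limma gave a change of -0.31 for Nrp1 (adjusted p = 0.625) and -0.46 for Nrp2 (adjusted p = 0.540) between WT dpc16 and NP.

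In whole epidermis the neuropilins were highest outside the keratinocyte layers. Of the Nrp1 UMIs, 26 of 40 at NP, 4 of 19 at dpc16, 26 of 56 at dpp6 and 25 of 38 at dpp40 were in sebaceous-like cells, which held 2.10% to 3.98% of all UMIs. Nrp1 there was at 20.8 (13.6 to 30.5), 2.24 (0.610 to 5.73), 11.8 (7.71 to 17.3) and 18.99 (12.3 to 28.04) CPM, lowest at dpc16. Sebaceous glands make the lipid of skin, and 10 sebaceous markers summed to 8178 CPM in this class against 153 in basal-like cells. Nrp2 in the same cells was at 60.8 (47.9 to 76.1), 31.9 (24.2 to 41.3), 66.2 (55.9 to 77.9) and 78.3 (63.9 to 94.9) CPM at NP, dpc16, dpp6 and dpp40, again lowest at dpc16, with an interval below the other 3. Thinned to 2000 UMIs, 9.71%, 5.71%, 10.6% and 14.1% of sebaceous-like cells had an Nrp2 UMI (25.7%, 13.2%, 29.7% and 38.0% unthinned), against 2.25%, 0.575%, 1.48% and 0% of Langerhans-like cells. The sebaceous-like cells had a median of 3948 UMIs at dpc16 and 5491.5 to 6820.5 in the other libraries. The edge of this class depends on the clustering, most of all at dpc16: the class held 206, 385, 340 and 184 cells at NP, dpc16, dpp6 and dpp40, and 139, 180, 245 and 140 at a Leiden resolution of 0.5. Nrp2 was then at 75.04, 45.6, 77.05 and 86.1 CPM and Nrp1 at 27.1, 4.24, 13.1 and 22.7, with dpc16 still the lowest. At a resolution of 1.5 the dpc16 library had 489 such cells with Nrp2 at 23.6 CPM, against 61.7, 62.4 and 75.9 at NP, dpp6 and dpp40. Intervals were not set at these other resolutions. Only the order of the libraries is read there, and whether the dpc16 interval still lies apart is not shown.

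The Cldn10 and Mfap2 cluster was the other site of Nrp2, at 49.1 (32.9 to 70.6), 119 (106 to 133) and 79.9 (68.4 to 92.9) CPM in its 128, 361 and 325 cells at NP, dpp6 and dpp40. It had only 9 cells at dpc16, and their level is not read here. Nrp2 was among its 10 leading genes although clustering did not use it. The cluster carried melanocyte markers at 326 CPM (Dct at 159), with pericyte markers at 83.7 and fibroblast markers at 63.2 against 35.2 and 4.47 over all cells. Bulge and outer root sheath markers were at 867 CPM, cycling markers at 555 and endothelial markers at 26.2, against 487, 218 and 4.15 over all cells. Interfollicular basal markers were lower, at 6385 against 16209. The cluster was given no name. Sebaceous-like cells and this cluster held 55.9% and 21.3% of all Nrp2 UMIs at NP, 25.4% and 52.1% at dpp6, and 29.0% and 48.2% at dpp40, and sebaceous-like cells held 50.9% at dpc16. Basal-like cells had 1 to 10 Nrp2 UMIs per library.

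**Figure D4:**
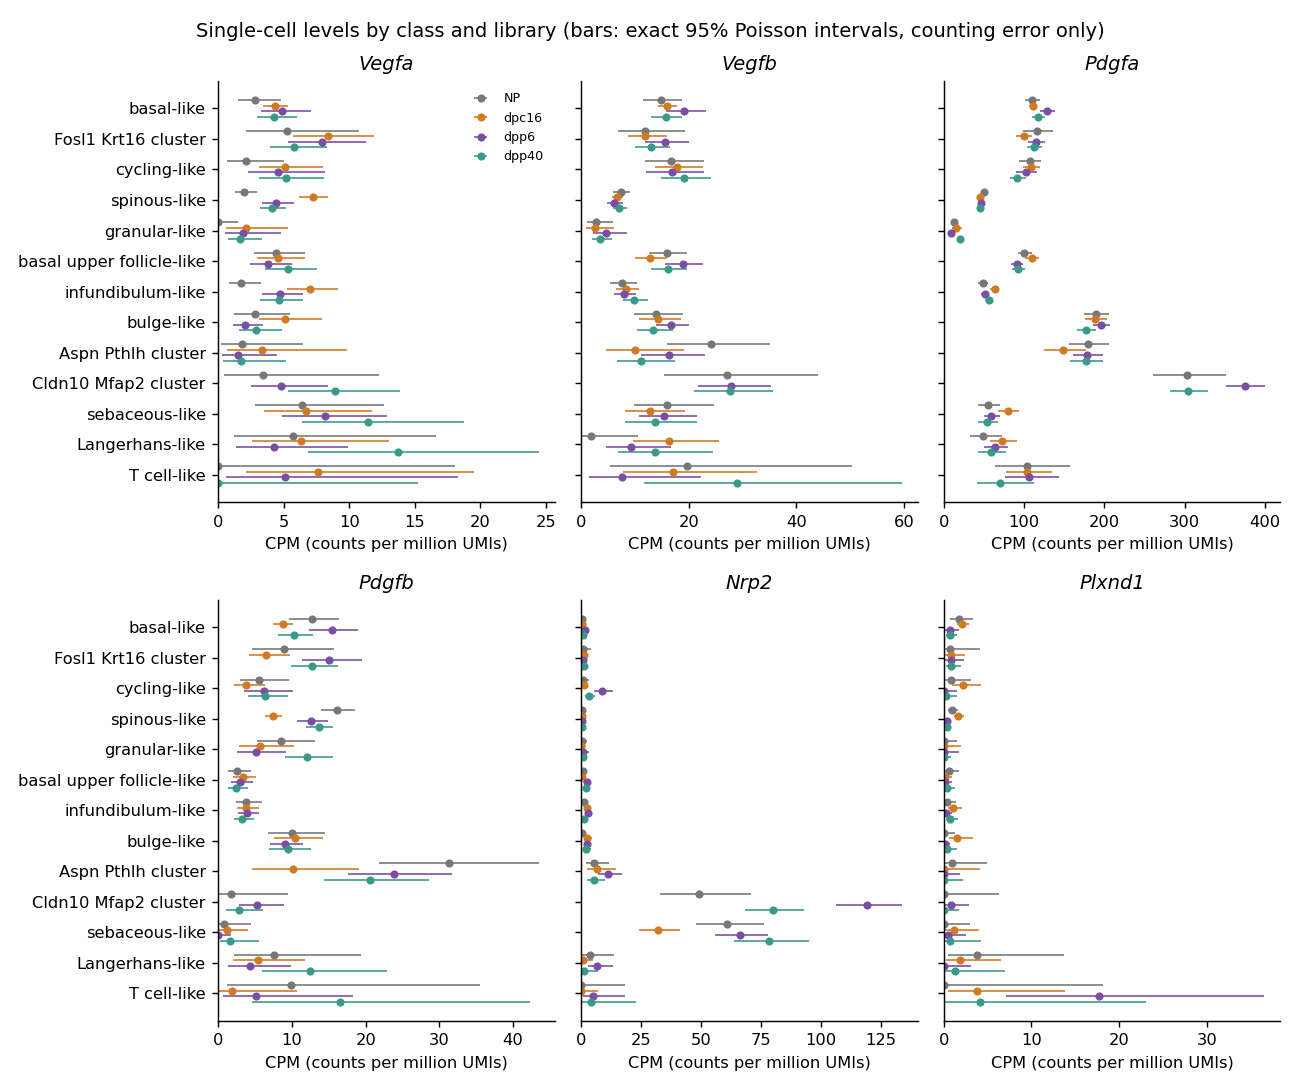
Levels in CPM (linear axes) of 6 genes in 13 cell classes and the 4 single-cell libraries, with exact 95% Poisson intervals that cover counting error only; classes under 20 cells in a library are not drawn. Nrp2 is highest in sebaceous-like cells (31.9 to 78.3) and the Cldn10 Mfap2 cluster (49.1 to 119), Pdgfa is low in granular-like (9.38 to 20.3) and high in bulge-like cells (178 to 196), and in spinous-like cells the dpc16 library is the highest for Vegfa and the lowest for Pdgfb.

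The kinase receptors of these ligands were nearly absent from the same libraries. Kdr was listed at 0 in 8 bulk libraries and at 0.0304 FPKM in WT dpc16 library 3, Flt1 reached at most 0.382 FPKM, and Pdgfra and Pdgfrb reached 0.273 and 0.0370. Single cells held 14 Kdr, 70 Flt1, 3 Flt4, 27 Pdgfra and 24 Pdgfrb UMIs in 36927 cells. Pdgfrb was highest in T cell-like cells, at 4.91 to 10.1 CPM over the 4 libraries, from few UMIs in each. In other classes of at least 20 cells it reached at most 0.903 CPM in any library. No cluster was led by endothelial markers, and Cdh5 was at most 0.4 CPM in any cluster.

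Other ligands of the same receptors were measured for all groups. Vegfd, a lymphatic ligand related to Vegfc, was at 19.5, 20.3 and 17.6 FPKM in WT dpc16, 32.1, 25.0 and 22.3 in NP and 76.2, 72.6 and 48.1 in cKO, where every cKO library was above all others. Vegfd rose in cKO against WT dpc16 by 1.70 (limma adjusted p = 0.00605, under the threshold in all 16 other settings) and against NP by 1.27 (adjusted p = 0.0127, lost without cKO library 1, at 0.0536). Of the 9 other VEGF and PDGF ligands and receptors listed in the bulk data, 2 were tested, and the second, Pdgfc, had changes of 0.38, 0.57 and 0.95 in the 3 comparisons (adjusted p = 0.778, 0.390 and 0.104). In single cells Vegfd was seen in basal-like cells at 43.0 to 62.5 CPM and in spinous-like cells at 13.8 to 24.1. Basal upper follicle-like cells had 40.2 to 58.2 CPM and a cluster led by Fosl1 and Krt16 had 39.3 to 54.2, both overlapping the basal-like range. Langerhans-like cells had 9.30 to 28.9, which takes in the spinous-like range, so free RNA was not separated from expression in spinous-like cells.

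Of 7 class 3 semaphorins, which signal through neuropilins and plexins, 4 were tested and 0 were called in any of the 3 comparisons. Sema3e, the ligand that binds plexin D1 directly, was at 0.980, 0.970 and 1.31 FPKM in WT dpc16, 1.03, 2.196 and 2.10 in NP and 3.25, 3.06 and 3.58 in cKO. All cKO libraries were above all WT libraries, and the limma change was 1.04 against WT dpc16 (adjusted p = 0.0706) and 0.66 against NP (adjusted p = 0.159). Sema3d had -1.15 for WT dpc16 minus NP (adjusted p = 0.237) and -1.17 for cKO minus NP (adjusted p = 0.052), and Sema3f -0.60 for cKO minus WT dpc16 (adjusted p = 0.119). In single cells Sema3e was at 117 to 150 CPM in the Aspn and Pthlh cluster and at 61.7 to 92.5 in bulge-like cells, against 2.1 to 3.8 in basal-like cells.

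Among 21 other plexins and transmembrane semaphorins, 12 were tested, and 2 rose and 0 fell in cKO against WT dpc16. They were Sema5a, at 6.15 to 8.06 FPKM in WT dpc16 and 15.4 to 18.8 in cKO (1.22, limma adjusted p = 0.0103), and Sema6c, at 0.627 to 1.42 and 5.56 to 11.6 (1.99, adjusted p = 0.0425). The Sema5a call was lost without WT dpc16 library 2 (0.0573) or cKO library 1 (0.0507), and the Sema6c call without any 1 of the WT dpc16 or cKO libraries or NP library 1 (0.0505 to 0.162). In all, the Sema6c call was lost in 9 of 15 other settings, of which 7 leave out 1 library. Sema5a also rose in cKO against NP (1.48, adjusted p = 0.00373). In the list of 14 tested partners of neuropilins and plexins 1 rose and 0 fell in cKO against WT dpc16: Rras2, a Ras family member related to the GTPases that plexins switch off (1.11, adjusted p = 0.022), a call lost without WT dpc16 library 1 or 2 or cKO library 1 or 2 (0.064 to 0.0892). The Rras2 call was lost in 5 of 16 other settings, of which 4 leave out 1 library.

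Among 4 tested angiopoietin-like and Tie genes, Angptl4, a lipoprotein lipase inhibitor with roles in vessels, rose in WT dpc16 against NP and fell in cKO against WT dpc16. It was at 31.3, 44.8 and 29.0 FPKM in WT dpc16, 3.88, 6.43 and 5.69 in NP and 4.61, 4.36 and 5.79 in cKO, so the WT dpc16 libraries were far above both other groups, which overlapped. The limma changes were 2.51 (adjusted p = 0.00242) and -2.59 (adjusted p = 0.00165). Angptl4 was the only gene of the 10 ligand, receptor, inhibitor, partner, matrix and hypoxia lists that was called between WT dpc16 and NP. Angptl7, a secreted matrix-associated protein, rose in cKO by 3.09 against WT dpc16 (adjusted p = 0.0172) and 2.82 against NP (adjusted p = 0.017). The first call was lost without any 1 of the WT dpc16 libraries (0.0622 to 0.0695) or cKO library 1 (0.0787), and the second without NP library 2 (0.056) or cKO library 1 (0.0694). Over the 16 other settings the first was lost in 5 and the second in 3, of which 4 and 2 leave out 1 library.

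The 12 tested angiogenesis inhibitors had 2 calls in cKO against WT dpc16, both lower, with a list median of -0.13 beside 0.01 over all genes tested. Thbs2, a thrombospondin, was at 58.7, 60.1 and 60.5 FPKM in WT dpc16 and 11.9, 25.5 and 21.3 in cKO (-1.63, limma adjusted p = 0.0109). Sparc, a matrix protein that binds PDGF-B and VEGF-A, was at 89.8, 95.4 and 83.4 FPKM in WT dpc16 and 17.1, 35.0 and 33.3 in cKO (-1.68, adjusted p = 0.0106). Both were lower in cKO than in NP as well (-1.38, adjusted p = 0.0146, and -1.53, adjusted p = 0.0117), and without WT dpc16 library 2 the calls against WT dpc16 were lost (0.0554 for each). The Thbs2 call against NP was lost in 1 of 16 other settings (limma adjusted p = 0.0521). Of 15 other angiogenic ligands 1 rose in cKO against WT dpc16, Ctgf, a matricellular growth factor (1.93, adjusted p = 0.0419), a call lost without any 1 of the WT dpc16 libraries, NP library 2 or cKO library 1 or 3 (0.0601 to 0.146). Against WT dpc16 the Ctgf call was lost in 8 of 16 other settings, of which 6 leave out 1 library. Of 15 tested genes of ligand processing and matrix binding 0 were called in that comparison, and 1 rose against NP, the membrane protease Mmp14 (0.83, adjusted p = 0.025), a call lost without NP library 2 or 3 or cKO library 1 or 2 and in the fit of the 2 groups alone (up to 0.0794).

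Of 8 tested genes of hypoxia sensing 0 were called in any comparison; Hif1a was at 68.7, 73.6 and 64.7 FPKM in WT dpc16, 55.1, 48.3 and 25.1 in NP and 46.8, 48.8 and 49.1 in cKO (0.75, adjusted p = 0.368, and -0.51, adjusted p = 0.330). The 20 hypoxia target genes, in 21 table entries because Aldoa has 2, had a median of -0.47 between WT dpc16 and NP beside -0.03 over all genes, with 0 called. In cKO against WT dpc16 their median was -0.19 with 1 call, a rise of the mitophagy receptor Bnip3 (1.85, limma adjusted p = 0.0119, lost without WT dpc16 library 2, at 0.0573, or cKO library 1, at 0.0545). In cKO against NP the median was -0.68 with 6 entries lower and 0 higher, among them the glycolytic enzymes Pkm (-1.20, adjusted p = 0.0181), Tpi1 (-1.31, 0.0267), Eno1 (-1.11, 0.0335) and Pgk1 (-1.04, 0.0336). Without cKO library 1 none of these 4 passed (0.0536 to 0.0978), nor did any without NP library 3 (0.0555 to 0.0854). Of the 16 other settings the call was lost in 3 for Pkm, 6 for Tpi1, 9 for Eno1 and 10 for Pgk1, of which 2, 4, 6 and 7 leave out 1 library. Vegfa had the same sign as this list in that comparison and did not pass.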

How the data were processed

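Bulk values were deposited by the authors as FPKM in 1 table, and single-cell values as raw UMI counts per gene and barcode, per the file headers. The submitters' processing notes list build mm10, Cell Ranger 2.2.0, Cuffdiff, Cufflinks 2.2.1, TopHat2 and cutadapt 1.14, without roles. The depth behind the FPKM is not given in the sources used here, nor is any scaling between bulk libraries or strand setting, so no interval was set on single FPKM values. Columns headed WT were taken as WT dpc16, since the other headings name NP and cKO; libraries are numbered by column order. Genes averaging at least 1 FPKM (11497) were fitted with limma 3.58.1 on log2(FPKM + 1), on which the changes of low genes come out too small: 3 group means over 9 libraries, trended empirical Bayes, two-sided, Benjamini-Hochberg threshold 0.05. The procedure was tested on simulated data. Nothing states separate animals, so p-values measure only how far these libraries differ, which may be technical spread.

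Cells were kept from 200 genes upward and up to 10% of UMIs from mitochondrial genes (36927 of 37686; the study states 6485, 12846, 9029 and 8552 cells). Cells were clustered with scanpy 1.11.5 (2000 variable genes without the 9 members, 30 components, Leiden resolution 1, 22 clusters) and clusters named "X-like" from marker lists; 2 clusters whose leading genes pointed to no single list and a Fosl1 and Krt16 cluster stay unnamed. Doublets were not removed. Langerhans-like cells served as the background for shares. The members and lists were chosen with earlier results of these data known. Named genes were all members, Tbx3, per pathway list up to 4 called genes or else the 2 of smallest p, and the 5 genes nearest to Plxnd1 and to Vegfa. Of these, 1 gene is not reported here. Gene positions are from GENCODE M21 (mm10). Alternatives were 7 settings of the fit and 9 fits that leave out 1 library, and for single cells other filters, denominators, resolutions and thinning depths.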

Additional observations from a re-analysis of the deposited data

How the results depend on the processing

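Counts of called genes were 15, 247 and 651 (WT dpc16 minus NP, cKO minus WT dpc16, cKO minus NP). With no minimum level they were 9, 87 and 314. Without a trend they were 160 and 427 in the last 2 comparisons, and in fits of the 2 groups alone 163 and 168. Leaving out 1 library gave 5 to 15, 41 to 406 and 118 to 736. Counts of called members were 0, 1 and 2. For WT dpc16 minus NP the count was 1 with a pseudocount of 5 and 1 in the fit of 2 groups. For cKO minus WT dpc16 it was 2 with a minimum mean of 5 FPKM and 2 after quantile normalization. For cKO minus NP it was 1 with a pseudocount of 5, with no minimum, after quantile normalization and without a trend, and 0 in the fit of 2 groups. Leaving out 1 library gave 0 to 1, 1 to 2 and 0 to 2. The cause of these shifts was not tested, beyond the fewer libraries or other genes fitted. Signs reversed only for uncalled changes: Pdgfa, WT dpc16 minus NP, was -0.03, -0.04 and -0.16 without WT dpc16 library 1, WT dpc16 library 2 and NP library 1, and Vegfb, cKO minus WT dpc16, was 0.042 without cKO library 2. Leaving out 1 library gave -0.16 to 0.18 for the first and -0.36 to 0.042 for the second. No paired analysis was possible because the numbers in the column headings are not tied to the replicate numbers of the sample titles.

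Of 36 single-cell library levels, 28 moved beyond their interval when the 50 highest genes and mitochondrial genes left the denominator, 7 with limits of 500 genes and 5% mitochondrial UMIs (Nrp2 to 2.41, 1.13, 7.33 and 4.96 CPM at NP, dpc16, dpp6 and dpp40), 9 without the 5% of barcodes with the most UMIs, a choice made after seeing the data, and 0 with all barcodes. Of 459 class levels 19 moved at resolution 0.5, 3 at 1.5, 8 with the members among the variable genes and 11 without the top barcodes. Vegfc, Pgf, Nrp1 and Plxnd1 rest on few UMIs, and depth limits what their class levels can show.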
